A study of Rattus norvegicus with 18 samples.

Results

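Peak_4277 and Peak_7421 are the H3K4me3 peaks that were paired with *Pdss1* and *Slc25a23*, and they are 2 of the 16364 merged peaks of this ChIP-seq experiment in primary rat Schwann cells. Schwann cells are the glia that wrap the axons of peripheral nerves. Both genes encode mitochondrial proteins. The pairing rests on the mean peak levels that the study lists beside gene names, and each peak was the closest of all 16364 to its gene's listed levels. Of the 31 genes listed there, 26 had a chromosome in the RefSeq gene table, and the paired peak lay on that chromosome for 26 of 26. Both peaks were chosen on readout. The study listed them because they were lower at 30 min than in control cells and higher again at 3 h 30 min in these same libraries, so every difference between the ChIP conditions at the 2 peaks is given below as a description with its standard error and without a p-value.

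The 3 conditions were untreated control cells, cells collected 30 min after cAMP was washed out, and cells collected 3 h 30 min after washout. The cells were cultures from the sciatic nerves of Fisher rats 3 months of age. They were first expanded with neuregulin and forskolin, and then grown for the experiments without either. Both washout groups had first received the membrane-permeable analog 8-CPT-cAMP for 30 min. Its dose is 100 μM by the sample characteristics but 50 μM by the treatment protocol. Each condition had 3 ChIP libraries and 3 genomic input libraries, 18 in all. Nothing in the sources says that the replicates came from separate cultures, so the spread between them may be technical. A second run is named in the labels of replicate 3 at 30 min.

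H3K4me3, trimethylation of lysine 4 on histone H3, marks the start sites of active genes and is densest where CpG dinucleotides are frequent. It is removed by the iron-dependent KDM5 demethylases. *Pdss1* encodes a subunit of the prenyl diphosphate synthase that builds the isoprenoid tail of ubiquinone, the electron carrier of the respiratory chain. *Slc25a23* encodes a calcium-regulated carrier of the inner mitochondrial membrane that exchanges ATP-Mg for phosphate.

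The promoter sequences of both genes are shown because H3K4me3 is known to follow CpG content, and CpG dinucleotides are in capitals. The sequences are from RefSeq on build GRCr8 and are read 5′ to 3′ on the gene's strand, from 250 bases before to 50 bases after the annotated start. The *Pdss1* window is chr17:89968244-89968543 on the plus strand, and the *Slc25a23* window is chr9:1985316-1985615 on the minus strand.
Pdss1: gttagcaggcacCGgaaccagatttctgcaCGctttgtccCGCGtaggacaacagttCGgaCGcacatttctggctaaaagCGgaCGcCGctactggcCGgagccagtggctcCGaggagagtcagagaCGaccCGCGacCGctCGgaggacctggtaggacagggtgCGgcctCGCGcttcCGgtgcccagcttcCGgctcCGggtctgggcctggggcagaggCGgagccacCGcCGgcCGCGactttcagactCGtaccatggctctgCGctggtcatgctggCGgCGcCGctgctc
Slc25a23: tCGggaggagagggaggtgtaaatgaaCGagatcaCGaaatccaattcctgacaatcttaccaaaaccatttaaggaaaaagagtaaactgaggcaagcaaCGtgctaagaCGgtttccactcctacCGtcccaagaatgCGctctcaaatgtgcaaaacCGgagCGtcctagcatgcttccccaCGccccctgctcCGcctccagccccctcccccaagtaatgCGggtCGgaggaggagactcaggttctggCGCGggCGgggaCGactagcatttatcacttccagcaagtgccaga

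The *Pdss1* window held 32 CpG dinucleotides at a GC content of 67.0%, and 91.6% of 33469 rat promoter windows of the same length held fewer CpGs. The *Slc25a23* window held 17 CpGs at a GC content of 54.3%, and 71.0% of windows held fewer. The medians over all windows were 7 CpGs and 51.7% GC, so both promoters lie on the CpG-rich side. Motifs were searched on both strands. These were the cAMP response element TGACGTCA (in 1.83% of windows), its core TGACG (21.2%, counting those inside the full element), the NRF1 core GCGCATGC (2.47%), the GC box GGGCGG (33.1%) and CCAAT (37.5%). The *Slc25a23* window matched CCAAT at bases 42 to 46 and GGGCGG at bases 258 to 263, counted from the 5′ end, and none of the 5 strings occurred in the *Pdss1* window. In gene order on GRCr8, *Pdss1* lies between *Apbb1ip* and *Abi1*, a pair of actin-related adaptor genes. *Slc25a23* lies between *Slc25a41*, which encodes a related carrier, and *Crb3*, a cell polarity gene on the opposite strand whose own window shares 0 bases with that of *Slc25a23*. The peaks were deposited on build Rnor_6.0, so where these windows lie within the peaks was not analysed here.

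On Rnor_6.0 the *Pdss1* peak spans chr17:90071137-90072130, 994 bp, and the *Slc25a23* peak spans chr9:9987934-9988905, 972 bp. Both are narrow, since 22.7% and 21.6% of all peaks were narrower and the median width was 1540 bp. Mean levels over the 9 ChIP libraries were 27.9 CPM (counts per 1000000 reads in peaks, with TMM library sizes) for *Pdss1* and 29.7 CPM for *Slc25a23*, against a median of 51.3 CPM over all peaks. Per kb the peaks came closer to the median of 31.8 CPM, at 28.1 CPM for *Pdss1* and 30.5 CPM for *Slc25a23*. Their surroundings differed. The nearest other peak lay 117188 bp from the *Pdss1* peak and only 278 bp from the *Slc25a23* peak, and 87.9% and 5.90% of peaks, respectively, had a closer neighbour. The median gap was 21492.5 bp.

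Reads in peaks numbered 13762905 to 17160987 per ChIP library, 75.1% to 88.5% of the aligned reads. The biological coefficient of variation over all peaks was 1.96%. Depth at the 2 peaks was 359 to 526 reads per library, which gives a counting error of 4.45% to 5.03% (coefficient of variation) in each condition. About 18.1% to 27.1% of the read starts that remain possible after duplicate removal were filled. This takes every counted read to start inside its peak, so the shares are approximate.

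At the *Pdss1* peak, control libraries held 413, 440 and 436 reads, or 30.1, 30.6 and 30.2 CPM. Libraries at 30 min held 455, 375 and 359 reads, or 26.7, 24.5 and 22.3 CPM. Libraries at 3 h 30 min held 452, 404 and 430 reads, or 29.0, 27.8 and 30.2 CPM. All 30 min libraries therefore lay below all control libraries and below all 3 h 30 min libraries, and the 3 h 30 min and control libraries overlapped. Means were 30.3 ± 0.229 CPM in control cells, 24.5 ± 2.17 CPM at 30 min and 29.0 ± 1.21 CPM at 3 h 30 min (SD, n = 3 each). In the edgeR fit, the log2 difference was -0.31 (SE 0.07) for 30 min against control, a change in level of -19.1%. It was 0.24 (SE 0.07) for 3 h 30 min against 30 min and -0.06 (SE 0.07) for 3 h 30 min against control, the last within its standard error of 0.

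At the *Slc25a23* peak, control libraries held 400, 422 and 431 reads, or 29.2, 29.3 and 29.8 CPM. At 30 min the counts were 421, 370 and 440 reads, or 24.7, 24.2 and 27.3 CPM. Counts at 3 h 30 min were 522, 466 and 526 reads, or 33.5, 32.1 and 37.0 CPM. The 3 groups did not overlap, with 30 min lowest and 3 h 30 min highest. Means were 29.4 ± 0.338 CPM in control cells, 25.4 ± 1.70 CPM at 30 min and 34.2 ± 2.51 CPM at 3 h 30 min (SD, n = 3 each). The log2 difference was -0.21 (SE 0.07) for 30 min against control, a change in level of -13.7%. For 3 h 30 min it was 0.21 (SE 0.06) against control, a level 16.0% higher, and 0.43 (SE 0.06) against 30 min, a level 34.4% higher. The *Slc25a23* peak thus ended above its control level, where the *Pdss1* peak ended within a standard error of its own.

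**Figure D1:**
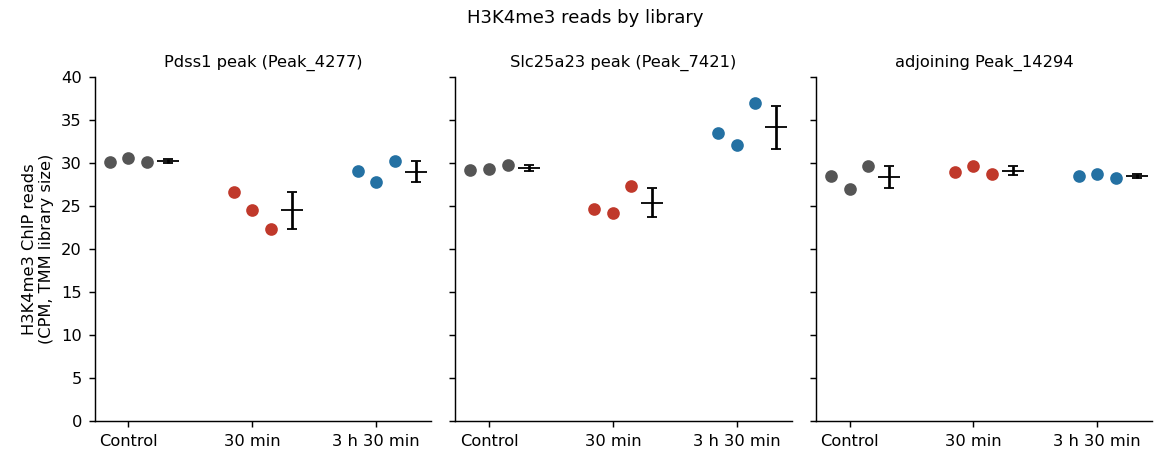
H3K4me3 reads (CPM with TMM library sizes, y axis) in each ChIP library of control cells, 30 min and 3 h 30 min after washout, for the *Pdss1* peak, the *Slc25a23* peak and the adjoining Peak_14294; coloured points are libraries, black bars are mean ± SD (n = 3). At 30 min the *Pdss1* and *Slc25a23* libraries sit at 22.3 to 27.3 CPM, under the control libraries, while the means of Peak_14294 are 28.4, 29.1 and 28.5 CPM.

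These patterns have to be read against the whole peak set, in which separated groups were common. Over all 16364 peaks, 17.5% had every 30 min library below every control library, 22.9% had every 3 h 30 min library above every 30 min library, and 22.8% had every 3 h 30 min library above every control library. The first and the second together held for 1525 peaks, 9.32%, the 2 named peaks among them. By size of fit the peaks stood nearer to the edge, and this is what they were listed for. Only 27 peaks had a lower log2 difference at 30 min against control than *Pdss1*, and 52 had a lower one than *Slc25a23*. For 3 h 30 min against 30 min, 70 peaks had a higher value than *Slc25a23* and 388 a higher one than *Pdss1*. Control replicates were unusually close at both peaks. Their coefficients of variation were 0.755% (*Pdss1*) and 1.15% (*Slc25a23*), below the counting error, and at 30 min they were 8.87% and 6.69%.

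Scaling to all aligned reads, in place of reads in peaks, moved the median fitted log2 difference of all peaks. It was -0.07 for 30 min against control, 0.07 for 3 h 30 min against control and 0.16 for 3 h 30 min against 30 min. On that scale the log2 ratios of group means, not fitted values, were -0.40, 0.00 and 0.40 for *Pdss1* in the same order. Those of *Slc25a23* were -0.30, 0.28 and 0.59. Which groups overlapped stayed as on the main scale at both peaks.

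Peaks of similar shape show how far these values lie from their like. Both named peaks were listed for a fall at 30 min and a rise after it. Their outlying places in those contrasts follow from that choice and are given as a description. For *Pdss1*, 125 peaks had a width and a mean CPM within 10% of its own, neighbours left out. Their log2 differences at 30 min against control had a median of 0.06 and ran from -0.29 to 0.26, so 0 of 125 lay at or below the *Pdss1* value. For 3 h 30 min against 30 min, 2 of 125 lay at or above it. For 3 h 30 min against control 29 of 125 lay at or below the *Pdss1* value, and their median was 0.09. For *Slc25a23* there were 118 such peaks. Their lowest log2 difference at 30 min against control was -0.13, above the *Slc25a23* value, and their highest at 3 h 30 min against 30 min was 0.25, below it. Of the 118, 14 were at or above the *Slc25a23* value at 3 h 30 min against control, where the median of the 118 was 0.10. Replicates at 30 min spread more at both peaks than at most similar ones, with 114 of 125 lower in coefficient of variation than *Pdss1* and 103 of 118 lower than *Slc25a23*. In control cells 6 of 125 and 9 of 118, respectively, spread less.

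**Figure D2:**
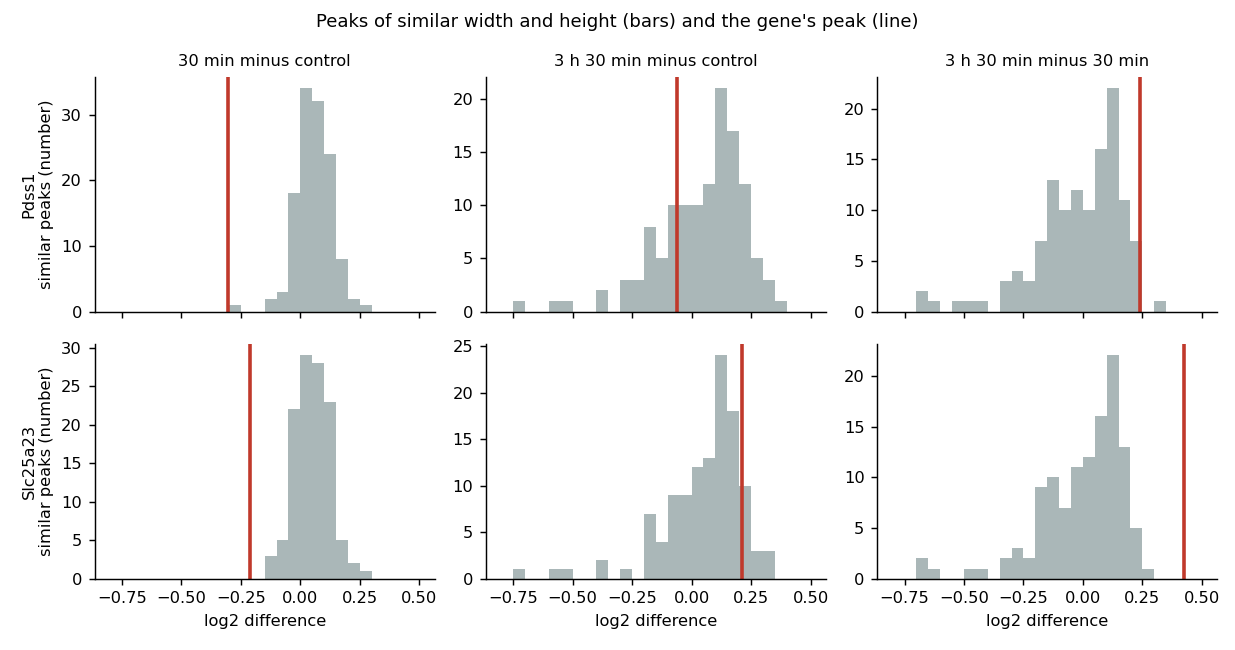
Number of peaks (y axis) by log2 difference (x axis, bins of 0.05) among the 125 peaks similar in width and mean CPM to the *Pdss1* peak (upper row) and the 118 similar to the *Slc25a23* peak (lower row), for 3 contrasts; the red line is the gene's own peak. For 30 min minus control, a contrast for which both peaks were listed, both red lines lie below all similar peaks. For 3 h 30 min minus control they lie inside the distribution.

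The closest neighbour of the *Slc25a23* peak, Peak_14294 at chr9:9986743-9987655, is nearly its match in width (913 bp) and level. It held 391, 389 and 428 reads in control libraries, 495, 454 and 462 at 30 min and 443, 418 and 403 at 3 h 30 min. Its means were 28.4 ± 1.31, 29.1 ± 0.501 and 28.5 ± 0.227 CPM in that order (SD, n = 3 each), and all 3 groups overlapped. Chosen by position, it could be tested. It did not pass in any contrast by edgeR's quasi-likelihood test, with log2 differences of 0.04 (SE 0.05, adjusted p = 0.726) for 30 min against control, 0.01 (SE 0.05, adjusted p = 0.954) for 3 h 30 min against control and -0.03 (SE 0.05, adjusted p = 0.677) for 3 h 30 min against 30 min.

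Within one library, the ratio of reads in Peak_7421 to reads in Peak_14294 does not depend on library size. It was 1.02, 1.08 and 1.01 in control libraries, 0.851, 0.815 and 0.952 at 30 min, and 1.18, 1.11 and 1.31 at 3 h 30 min. The 3 groups of ratios did not overlap, with means of 1.04 ± 0.0411, 0.873 ± 0.0713 and 1.20 ± 0.0969 (SD, n = 3 each). How many other pairs of close peaks had ratios that separate in this way was not counted. The 2 peaks, 278 bp apart, therefore took unequal shares of the reads in different conditions, and since one of them was selected for its change the ratio is a description. Summed, they gave 57.8 ± 1.57, 54.5 ± 1.32 and 62.7 ± 2.31 CPM, and log2 differences of -0.09 (SE 0.04) for 30 min against control, 0.12 (SE 0.04) for 3 h 30 min against control and 0.20 (SE 0.04) for 3 h 30 min against 30 min. Among all 738 pairs of peaks no more than 500 bp apart, 168, 338 and 203 were at least as far apart in log2 difference in the same 3 contrasts. These counts include this pair itself, and the 738 include pairs with few reads. In 193 of these pairs, this one again included, the lower member was at least as high as theirs. Of the 193, 4 were as far apart in log2 difference at 30 min against control (0.25 here, median 0.06). At 3 h 30 min 46 were as far apart against control and 7 against 30 min (0.46 here, median 0.11).

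**Figure D3:**
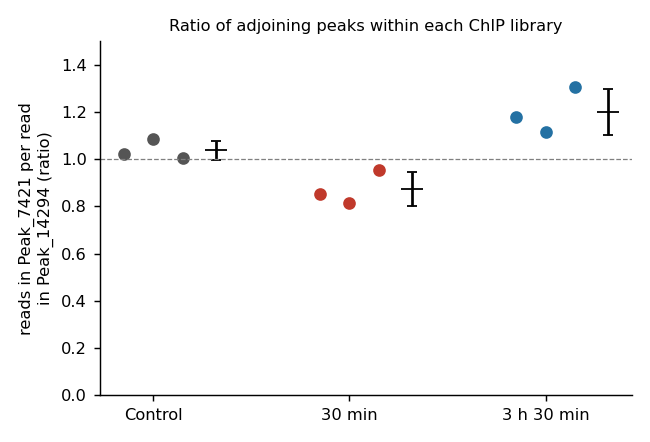
Reads in the *Slc25a23* peak (Peak_7421) per read in the adjoining Peak_14294 (y axis, ratio within each ChIP library) in control cells and 30 min and 3 h 30 min after washout; points are libraries, black bars mean ± SD (n = 3), and the dashed line marks equal reads. The ratio is 1.01 to 1.08 in control cells, 0.815 to 0.952 at 30 min and 1.11 to 1.31 at 3 h 30 min.

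The *Pdss1* and *Slc25a23* peaks, on different chromosomes, also differed from each other in course. The ratio of *Slc25a23* to *Pdss1* reads was 0.972 ± 0.0150 in control libraries, 1.05 ± 0.159 at 30 min, where it ran from 0.925 to 1.23, and 1.18 ± 0.0399 at 3 h 30 min. Over the 9 ChIP libraries Pearson's r of their log2 CPM was 0.60. Among all 16364 peaks this placed *Slc25a23* at rank 2179 in likeness to *Pdss1*, and *Pdss1* at rank 3765 in likeness to *Slc25a23*. Both were listed for a fall and a rise in these same libraries, so their r follows in part from that choice. The peaks most like *Pdss1* were Peak_11827 on chromosome 3 (r = 0.985), Peak_8244 on chromosome 10 (r = 0.980) and Peak_7050 on chromosome 7 (r = 0.970). Those most like *Slc25a23* were Peak_11904 on chromosome 4 (r = 0.989), Peak_10876 on chromosome 2 (r = 0.979) and Peak_7556 on chromosome 9 (r = 0.973). These are descriptions over libraries that share scaling and depth. The size of change differed among them. Peak_7050 went from a mean of 35.4 CPM in control cells to 28.1 CPM at 30 min and 33.8 CPM at 3 h 30 min. Peak_8244 went from a mean of 91.5 CPM in control cells to 86.1 CPM at 30 min and 90.4 CPM at 3 h 30 min, and Peak_11904 went from 136.6 to 131.0 and 143.8 CPM.

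Within 200 kb lay 12 other peaks, 2 around *Pdss1* and 10 around *Slc25a23*. At 30 min against control, 0 of the 12 passed edgeR's quasi-likelihood test, with log2 differences from -0.09 to 0.04. One of them, Peak_4276 near *Pdss1*, had an unadjusted p under 0.05, and DESeq2 called 0. Over all peaks 0.813% passed in this contrast, so the count among the neighbours was near this background. In a fit of those 2 conditions alone, Peak_4276 passed with a log2 difference of -0.10 (edgeR, adjusted p = 0.0199), and 1 of the 12 passed also when 3 h 30 min replicate 1 was left out of the fit of all conditions. In these fits 12.5% and 7.66% of all peaks passed.

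At 3 h 30 min the neighbours moved in both directions. Against control 6 of 12 passed, 3 higher and 3 lower, where 31.6% of all peaks passed. DESeq2 called 3 of the 12 (20.7% of all peaks), and edgeR called 3 without 3 h 30 min replicate 3 (24.3% of all peaks). Against 30 min 4 of 12 passed, 3 higher and 1 lower, where 41.2% of all peaks passed. DESeq2 called 2 (28.7% of all peaks), and edgeR called 2 without 30 min replicate 1 (28.5%) or without 3 h 30 min replicate 2 (31.1%). The lower calls depended on the scaling. With libraries scaled to all aligned reads, 3 neighbours were higher and 0 lower against control, where 23.7% of all peaks passed, and 7 were higher and 0 lower against 30 min, where 58.3% passed.

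Peak_7419, 120434 bp from the *Slc25a23* peak on the side of lower coordinates, rose most. Its means were 97.4 ± 3.81 CPM in control cells, 94.6 ± 0.244 CPM at 30 min and 114.5 ± 3.27 CPM at 3 h 30 min (SD, n = 3 each). It was higher at 3 h 30 min by a log2 difference of 0.23 (SE 0.03, edgeR, adjusted p = 0.000334) than in control and of 0.28 (SE 0.03, adjusted p = 5.20e-05) than at 30 min. Its values at 3 h 30 min against control and those of the *Slc25a23* peak were thus alike in size (0.23 and 0.21), while at 30 min against control Peak_7419 was at -0.04 (SE 0.03, edgeR, adjusted p = 0.447). Peak_2545, 120937 bp away on the other side, rose too, by 0.13 against control (edgeR, adjusted p = 0.0127) and 0.19 against 30 min (adjusted p = 0.00124). DESeq2 did not call it against control (adjusted p = 0.0690). Between them, 3 peaks fell against control at 3 h 30 min. These were Peak_2544 (log2 difference -0.13, edgeR, adjusted p = 0.00769), Peak_7422 (-0.13, adjusted p = 0.00888) and Peak_14296 (-0.08, adjusted p = 0.0326), all 24786 to 64253 bp away on the side of higher coordinates. Peak_2544 was also lower than at 30 min, by -0.09 (edgeR, adjusted p = 0.0340), but was higher by 0.07 without passing when libraries were scaled to all aligned reads, and DESeq2 did not call it (adjusted p = 0.182).

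Around *Pdss1*, both neighbours lay on the side of lower coordinates. Peak_4275, 145911 bp away, was higher at 3 h 30 min than in control by a log2 difference of 0.09 (SE 0.03, edgeR, adjusted p = 0.0444). Peak_4276, 117188 bp away, was higher at 3 h 30 min than at 30 min by 0.10 (SE 0.03, edgeR, adjusted p = 0.0348). DESeq2 called neither. Its means were lowest at 30 min, with 119.7 ± 1.59 CPM in control cells, 112.3 ± 3.93 CPM at 30 min and 120.1 ± 5.27 CPM at 3 h 30 min (SD, n = 3 each).

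**Figure D4:**
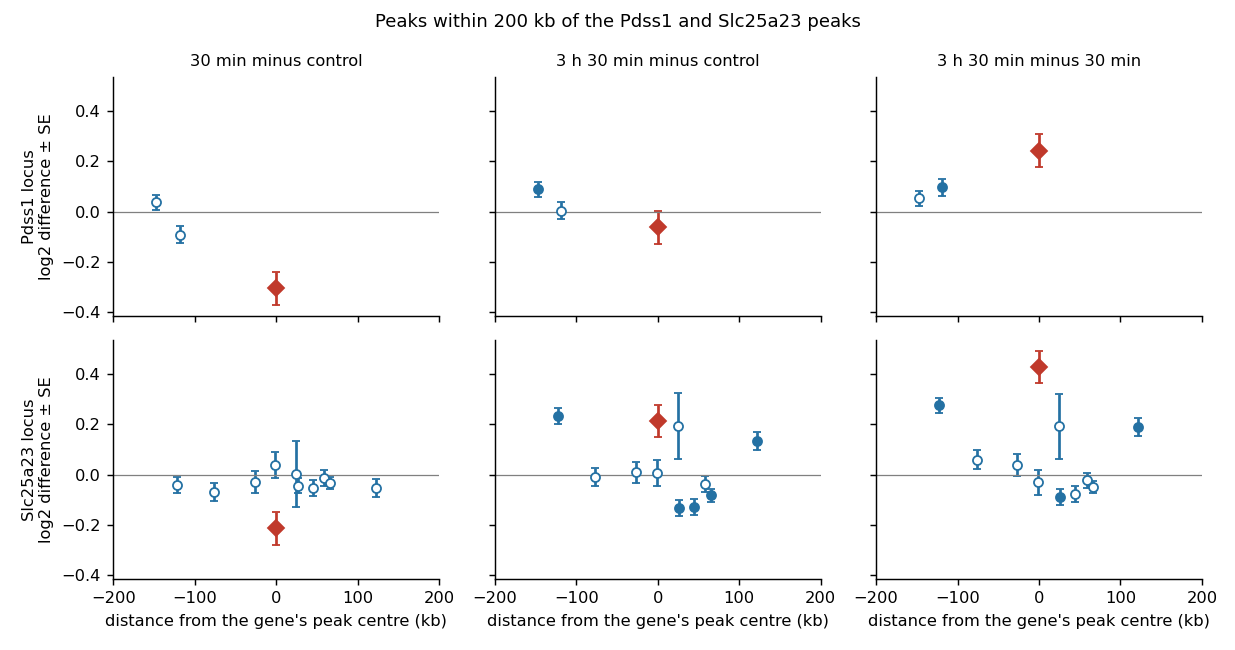
Log2 difference with SE (y axis) of the peaks within 200 kb of the *Pdss1* peak (upper row) and the *Slc25a23* peak (lower row), by distance between peak centres in kb (x axis), for 3 contrasts; red diamonds are the gene's own peak, filled blue circles neighbours with an adjusted p under 0.05 and open circles the others. At 30 min minus control all circles are open and lie between -0.09 and 0.04; at 3 h 30 min minus control the filled circles lie on both sides of 0.

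Genomic input, sheared chromatin that was not immunoprecipitated, gave few reads at either peak. The inputs held 2559134 to 23568319 aligned reads, of which 1.05% to 3.55% lay in peaks. The *Pdss1* peak held 2, 0 and 18 input reads in control libraries, 2, 6 and 37 at 30 min and 1, 6 and 1 at 3 h 30 min. The counts of 18 and 37 come from the 2 deepest inputs, control replicate 3 and 30 min replicate 3. These also had larger shares of reads in peaks, 2.95% and 3.55%. The share was 2.31% in 3 h 30 min replicate 2 and 1.05% to 1.47% in the other inputs. The 0 in control replicate 2 allows up to 1.18 RPKM (reads per 1000000 aligned reads per kb) by the limit of 3 counts, and up to 1.45 RPKM by the exact two-sided 95% Poisson interval that is plotted. Mean input was 0.389 ± 0.396 RPKM in control cells, 0.959 ± 0.634 RPKM at 30 min and 0.353 ± 0.375 RPKM at 3 h 30 min (SD, n = 3 each). By two-sided exact permutation tests, which cannot go below p = 0.1 with 3 libraries against 3, p was 0.3 for 30 min against control, 0.9 for 3 h 30 min against control and 0.2 for 3 h 30 min against 30 min. Mean input at the *Pdss1* peak was thus highest where the ChIP was lowest, a difference that did not pass. Its part in the ChIP values was not tested.

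At the *Slc25a23* peak input held 1, 1 and 23 reads in control libraries, 1, 3 and 30 at 30 min and 1, 18 and 1 at 3 h 30 min. The exact permutation p was 0.7, 1 and 1 for the same contrasts. The 18 reads of 3 h 30 min replicate 2 stand apart. They are 2.41 RPKM, with an exact 95% Poisson interval of 1.43 to 3.81 RPKM that covers counting error only, and 117 of the 118 similar peaks held fewer reads in that library, with a median of 6. The ChIP library of that replicate number, at 32.1 CPM, was the lowest of its group at this peak. Its part in the ChIP values was not tested.

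**Figure D5:**
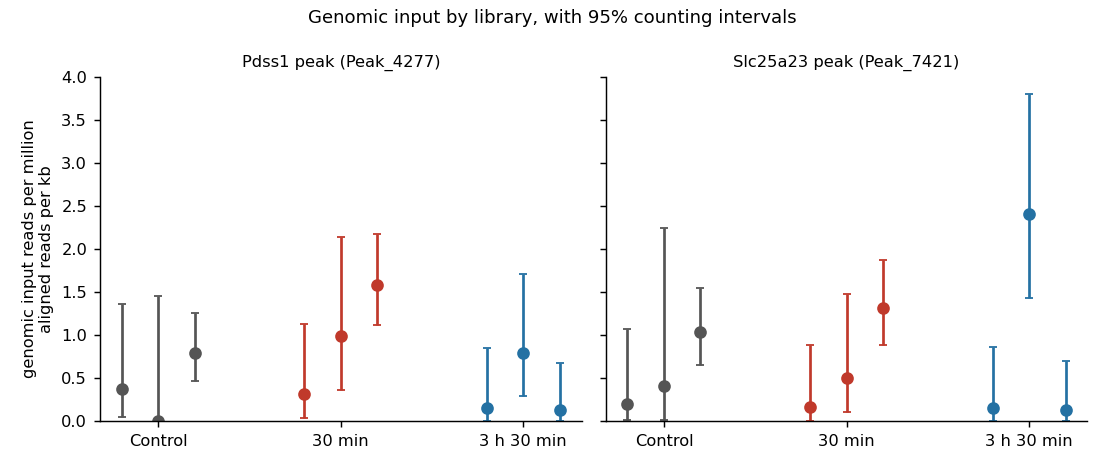
Genomic input in RPKM (reads per 1000000 aligned reads per kb, y axis) at the *Pdss1* and *Slc25a23* peaks in each input library of control cells and 30 min and 3 h 30 min after washout, replicates 1 to 3 from left to right; points are values and bars exact 95% Poisson intervals of the reads. Most intervals are wide and overlap each other, and 3 h 30 min replicate 2 is highest at the *Slc25a23* peak, at 2.41.

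Pooled over the 9 inputs, the *Pdss1* peak held 73 reads (0.820 RPKM) and the *Slc25a23* peak 79 (0.908 RPKM), near the medians of similar peaks at 0.819 and 0.797 RPKM. Control replicate 3 and 30 min replicate 3 gave 18 and 37 of the *Pdss1* reads and 23 and 30 of the *Slc25a23* reads. Over this pooled input, with libraries scaled to all aligned reads, *Pdss1* ChIP was 30.2-fold enriched in control cells, 23.0-fold at 30 min and 30.3-fold at 3 h 30 min. *Slc25a23* ChIP was 27.2-fold, 22.0-fold and 33.1-fold enriched in the same order. Over the 3 inputs of each condition alone, *Pdss1* ChIP was 38.0-fold, 15.05-fold and 69.8-fold enriched, on only 20, 45 and 8 input reads. For *Slc25a23* these values were 29.5-fold, 20.6-fold and 32.9-fold, on 25, 34 and 20 input reads. Both peaks stood above input in every condition by either measure. The regions were called as peaks from these same ChIP data, so this is a description and not a test.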

How the data were processed

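H3K4me3 ChIP-seq and genomic input of rat Schwann cells were examined. The authors trimmed 75-bp single reads, aligned them to Rnor_6.0 with BWA, discarded duplicates and reads that mapped more than once, ran MACS2 for peaks, merged these and counted reads with HTSeq. The deposited values are raw counts per merged peak. In 294552 values, the combined table and the single-library files differed in 0. HTSeq's classes of reads outside peaks stayed out of library sizes and tests.

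The 2 peaks and all lists were chosen with earlier results of these data known. Every peak within 200 kb and, for each of the 2 peaks, the 3 with the highest Pearson's r over the ChIP libraries were named. Differences were fitted with edgeR 4.0.16 (R 4.3.3) by quasi-likelihood on all 9 ChIP libraries, with TMM, a term for condition and Benjamini-Hochberg adjustment over 16364 peaks at 0.05. All 16364 peaks passed edgeR's filter. The script was run on simulated data with larger changes than any fitted at the 2 peaks. That run does not show how it performs on changes of their size. Input was compared by exact permutation tests on RPKM. Replicates with the same number did not deviate together throughout, and the main fit has no replicate block.

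Alternatives were no TMM, all aligned reads, loess offsets, DESeq2 1.42.0, no filter, at least 10 counts, the compared conditions only, the replicate block, each library left out, other distances (100 and 500 kb) and tolerances (5% and 20%). Summing Peak_7421 with Peak_14294 and leaving out the 2 deepest inputs were added after seeing the data. Peaks of other ubiquinone synthesis and carrier genes and of cell type markers need gene starts on Rnor_6.0 and were not analysed here. RNA-seq was not analysed here. Input intervals cover counting error only.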

Additional observations from a re-analysis of the deposited data

How the results depend on the processing

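Depth at these peaks, 359 to 526 ChIP reads and 0 to 37 input reads per library, limits what can be seen, and inputs could not show a change of ordinary size. With no replicate block, 133 peaks passed at 30 min against control. This count was 68 with all aligned reads, 81 with DESeq2, 2044 with the compared conditions only and 13 to 1287 with each library left out, each of the 9 moving it by more than 1.5 times. For 3 h 30 min against control, 5168 passed, 3387 with DESeq2 and 2887 to 6954 with each library left out. It was lowest without control replicate 1 (2887), 3 h 30 min replicate 2 (2985) or control replicate 2 (3294). The replicate block gave 244 calls at 30 min against control. Same-numbered libraries correlated at -0.20 to 0.33 in their deviations, and libraries of different numbers at -0.26 to 0.34. Libraries numbered replicate 1 correlated positively in every comparison (0.14, 0.20 and 0.33), but the other numbers did so unevenly. Whether some numbers share a batch was not tested. The cause of the moves in these counts was not tested either.

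Neighbours called at 30 min against control numbered 0 of 12, but 1 in the compared conditions only and 0 to 1 with a library left out. Of all peaks 0.813%, 12.5% and 0.0794% to 7.86% passed in these fits. At 3 h 30 min against control 6 of 12 passed, and 31.6% of all peaks. With all aligned reads 3 passed (23.7% of all peaks), with DESeq2 3 (20.7%). With a library left out 3 to 6 passed (17.6% to 42.5%). In the main fit 3 of 8 neighbours within 100 kb and 12 of 27 within 500 kb passed. At 3 h 30 min against 30 min 4 of 12 passed, and 41.2% of all peaks. With all aligned reads 7 passed (58.3% of all peaks), with DESeq2 2 (28.7%) and in the compared conditions only 2 (33.5%). With a library left out 2 to 4 passed (28.5% to 49.9%). In the main fit 1 of 8 neighbours within 100 kb and 12 of 27 within 500 kb passed. In 17 alternatives Peak_7419 passed every time in both contrasts and Peak_2545 every time against 30 min. Peak_4275 was lost in 8, Peak_4276 in 7, Peak_14296 in 9, Peak_2545 against control in 2, and Peak_7422 and Peak_2544 against control in 1 each. Against 30 min Peak_2544 was lost in 7 and changed sign in 1.

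In the edgeR fit with all aligned reads, the log2 difference of *Pdss1* was 0.0022 for 3 h 30 min against control and 0.40 against 30 min. That of *Slc25a23* was -0.30 for 30 min against control and 0.58 for 3 h 30 min against 30 min, and Peak_2544 was at 0.0675 in the latter. Loess offsets put *Pdss1* at -0.12 for 3 h 30 min against control. Summed with Peak_14294, *Slc25a23* was at -0.0851, 0.115 and 0.20. Peak_14294 changed sign without passing at 30 min against control (-0.0537 with all aligned reads, -0.0164 with loess offsets), at 3 h 30 min against control (-0.0472 with loess offsets, -0.0293 to 0.0404 with a library left out) and at 3 h 30 min against 30 min (0.12 with all aligned reads). Other alternatives kept the direction of the *Pdss1* and *Slc25a23* peaks. With 5% tolerance, 0 similar peaks reached *Pdss1* at 3 h 30 min against 30 min, against 1.60% of them at 10%.

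Input differences in RPKM changed sign with single libraries. For *Pdss1* at 3 h 30 min against control they ran from -0.252 to 0.165 with a library left out, and were 0.165 without the 2 deepest inputs. For *Slc25a23* they ran from -0.211 to 0.364 at 30 min against control, -0.403 to 0.740 at 3 h 30 min against control and -0.518 to 0.625 at 3 h 30 min against 30 min. With input reads in peaks as library size, *Slc25a23* at 30 min against control was -1.72, in reads per kb per 1000000 reads in peaks.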
